A study of Rattus norvegicus with 2 samples.

Results

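The 3p arms of the let-7 precursors, usually called passenger arms, were examined in small RNA libraries of cardiomyocyte exosomes. Members were the miRNAs of the count table whose name begins with mmu-let-7 and ends in -3p. This gave 11 of the 635 listed miRNAs, and the 8 let-7 5p entries served as the reference for the ratio of both arms. Exosomes were collected from the medium of primary heart muscle cells. These were digested from the minced hearts of Wistar rat pups aged 1 to 2 days, were enriched by differential adhesion, and were grown with bromodeoxyuridine (0.1 mM), a nucleoside analogue that restrains dividing cells. After serum starvation, the cells were kept for 48 h without angiotensin II (NC-Exo) or with 1 μmol/L angiotensin II (HC-Exo), a peptide hormone that enlarges cardiomyocytes in culture. There was 1 library per condition, with 102608 miRNA reads in NC-Exo versus 133155 in HC-Exo. The question was whether let-7 3p arms differed between exosomes of normal and of hypertrophic cardiomyocytes, by themselves and relative to their 5p arms.

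A miRNA hairpin is cleaved by Drosha and then by Dicer into a short duplex of a 5p and a 3p strand. An Argonaute protein keeps the guide strand, and the other strand, the passenger, is usually degraded and is found at a lower level. The let-7 family is conserved across animals, its 5p strands share a seed and are the guides, and mature let-7 is abundant in differentiated tissue such as heart, where it restrains genes of growth and of the cell cycle. The seed, bases 2 to 8 from the 5′ end, is the stretch that pairs with target mRNAs.

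The mature rat sequences are shown first, because the 3p arms differ in the seed while the let-7 5p arms share the seed GAGGUAG. Of the 11 members, 10 had a mature rat sequence in the RefSeq table of the GRCr8 build, matched by name, and let-7c-1-3p had none. All names of the count table carry the mouse prefix, and the submitters' processing notes name mouse builds, so the reads may have been counted on mouse sequences. The mature sequences used are not given in the sources used here. The printed rat sequences and seeds may therefore not be those counted. They comprised 9 different sequences with 6 seeds. The seed is in capitals, and the reading direction is 5′ to 3′.
let-7a-1-3p: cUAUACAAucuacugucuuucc
let-7c-2-3p: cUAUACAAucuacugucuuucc
let-7b-3p: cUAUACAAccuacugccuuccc
let-7f-1-3p: cUAUACAAucuauugccuucc
let-7f-2-3p: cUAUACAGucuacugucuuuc
let-7d-3p: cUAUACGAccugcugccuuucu
let-7e-3p: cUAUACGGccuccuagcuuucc
let-7a-2-3p: cUGUACAGccuccuagcuuucc
let-7g-3p: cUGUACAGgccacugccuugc
let-7i-3p: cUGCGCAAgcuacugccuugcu
The seed UAUACAA was shared by 4 members, let-7a-1-3p, let-7c-2-3p, let-7b-3p and let-7f-1-3p. The seed UGUACAG was shared by let-7a-2-3p and let-7g-3p, and the other 4 sequences each had a seed of their own. Counting positions from 1 at the 5′ end, let-7f-1-3p differed from let-7a-1-3p in 3 of 21 bases (C13U, U16C and U20C), so their first 12 bases were the same. In contrast, let-7f-2-3p differed from let-7a-1-3p in 1 of 21 bases, and that change, A8G, was inside the seed. The sequences of let-7a-1-3p and let-7c-2-3p were identical over all 22 bases, although they come from different precursors.

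On GRCr8, let-7a-1-3p lay at chr17:16320196-16320217, let-7f-1-3p at chr17:16320564-16320584 and let-7d-3p at chr17:16322327-16322348, all on the plus strand. Their hairpin genes formed a cluster, with 457 nt from the start of the let-7a-1 hairpin to the end of the let-7f-1 hairpin and 2225 nt to the end of the let-7d hairpin. The let-7f-1 hairpin carried the symbol Mirlet7f-1os, and the symbol Mirlet7f-1 stood for a hairpin annotated on the opposite strand. On chromosome X, let-7f-2-3p lay at chrX:24460102-24460122 on the plus strand, in a cluster of 711 nt with miR-98, a let-7 relative. The second source of the let-7a-1-3p sequence, let-7c-2-3p, lay at chr7:118683684-118683705 on the plus strand, close to let-7b-3p at chr7:118684098-118684119. On chromosome 1, the let-7e hairpin shared a cluster of 258 nt with miR-99b, and its 3p arm lay at chr1:67350288-67350309 on the plus strand.

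The hairpins of let-7d and let-7f-1 are shown with both arms in capitals, because let-7d was the family with more 3p than 5p reads and let-7f-1-3p was the member with the lowest ratio of HC-Exo over NC-Exo. The let-7d hairpin spans chr17:16322260-16322357 and the let-7f-1 hairpin chr17:16320501-16320589, both on the plus strand.
let-7d hairpin: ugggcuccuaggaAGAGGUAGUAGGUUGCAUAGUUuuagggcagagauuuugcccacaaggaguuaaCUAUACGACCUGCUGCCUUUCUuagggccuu
let-7f-1 hairpin: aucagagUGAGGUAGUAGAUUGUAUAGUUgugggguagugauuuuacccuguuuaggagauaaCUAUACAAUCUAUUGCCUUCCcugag

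Exosomes of both cultures carried let-7 3p arms over a wide range of levels. Levels are given as reads per 1000000 miRNA reads (RPM), in which 1 read stood for 9.75 RPM in NC-Exo versus 7.51 RPM in HC-Exo. By far the highest was mmu-let-7d-3p, with 2364 reads or 23039 RPM in NC-Exo (22130 to 23976, the exact Clopper-Pearson interval at 95%) compared with 2550 reads or 19151 RPM in HC-Exo (18421 to 19901). It ranked 10th of all listed miRNAs in NC-Exo versus 14th in HC-Exo, and it made up 82.7% of the let-7 3p reads in NC-Exo versus 83.6% in HC-Exo. A product named as a passenger strand was therefore among the most-read miRNAs of both libraries. These intervals cover counting error only, since PCR reads without molecular identifiers are not independent molecules.

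The next level was that of mmu-let-7a-1-3p and mmu-let-7c-2-3p, which had identical counts, 230 reads or 2242 RPM in NC-Exo versus 243 reads or 1825 RPM in HC-Exo. As both names stand for the same rat sequence, the source of these reads cannot be told apart. They were counted once in the sums over members. The library totals hold both entries, and the let-7a and let-7c arm ratios each use these reads. For mmu-let-7f-2-3p there were 103 reads in NC-Exo versus 109 in HC-Exo, or 1004 and 819 RPM. For mmu-let-7b-3p there were 90 and 75 reads, or 877 RPM (705 to 1078) in NC-Exo and 563 RPM (443 to 706) in HC-Exo. In both libraries the intervals of these neighbours in the order, let-7f-2-3p and let-7b-3p, overlapped.

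The product of the let-7f-1 hairpin, mmu-let-7f-1-3p, was counted 58 times in NC-Exo, at 565 RPM (429 to 731), compared with 35 times in HC-Exo, at 263 RPM (183 to 366). Its intervals did not overlap between the libraries, and its rank moved from 114 in NC-Exo to 173 in HC-Exo. Its interval overlapped that of let-7b-3p in NC-Exo and was below it in HC-Exo.

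The remaining members had few reads. There were 7 reads of mmu-let-7c-1-3p in NC-Exo versus 14 in HC-Exo, or 68.2 and 105 RPM. There were 6 and 16 reads of mmu-let-7e-3p, or 58.5 and 120 RPM. In each library, the intervals of these members overlapped each other. For mmu-let-7i-3p there was 1 read in NC-Exo versus 6 in HC-Exo. Its NC-Exo count was under the floor of 3 reads, so no fold is given, and the counting interval of its ratio was 0.561 to 213. Both mmu-let-7g-3p, with 0 and 3 reads, and mmu-let-7a-2-3p, with 0 and 1 read, were at or under the floor of 3 reads in both libraries, which is 29.2 RPM in NC-Exo versus 22.5 RPM in HC-Exo, so no fold is given. At this depth a difference in these members was not detectable. The same pairs of counts as in let-7i-3p, let-7g-3p and let-7a-2-3p also occurred in other miRNAs of the table.

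**Figure D1:**
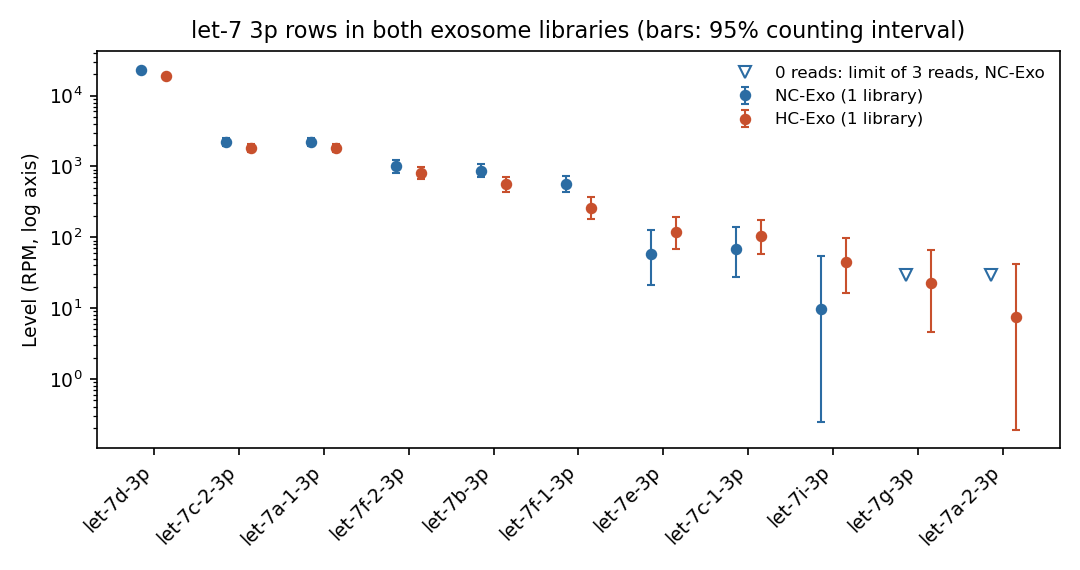
Level of each of the 11 let-7 3p members in RPM on a log axis, NC-Exo in blue and HC-Exo in orange, 1 library each, with 95% Clopper-Pearson counting intervals and open triangles at the floor of 3 reads (29.2 RPM) for members with 0 reads in NC-Exo. mmu-let-7d-3p is at 23039 and 19151 RPM, and mmu-let-7f-1-3p at 565 and 263 RPM, and in both the intervals of the libraries do not overlap.

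The labelled cell type was compared with marker miRNAs. All 6 heart and skeletal muscle miRNAs of the list, such as miR-1a-3p, miR-133a-3p and miR-208a-3p, were present in both libraries. They summed to 16.9% of the reads in NC-Exo versus 18.4% in HC-Exo, a summed log2 ratio of 0.12 (0.10 to 0.15), and miR-1a-3p, with a log2 ratio of 0.11 (0.08 to 0.14), was the most abundant. Higher log2 ratios were found for miR-133a-3p, at 0.36 (0.18 to 0.54), miR-133b-3p, at 0.51 (0.27 to 0.76), and miR-499-5p, at 1.43 (0.39 to 2.61). The intervals of miR-208a-3p, at 1.04 (-0.12 to 2.33), and miR-208b-3p, at -0.16 (-0.70 to 0.37), included 0. The list leaves out miR-206-3p, another muscle miRNA, which went from 14 to 57 reads. Its log2 ratio was 1.65 (0.79 to 2.61), with an adjusted p of 0.000451 in the exact binomial test. The study selected miR-206-3p from these libraries too, so this ratio is not independent evidence. With an assumed coefficient of variation of 0.1, its adjusted p was 0.133 in the exact test of edgeR. Of the blood cell miRNAs 5 of 6 were listed, with 0.709% and 0.773% of the reads and miR-486a-5p, at a log2 ratio of 0.04 (-0.10 to 0.19), as the most abundant. Among them miR-223-3p was higher in HC-Exo, at 0.75 (0.22 to 1.31), with an adjusted p of 0.0241 in the exact binomial test, and the intervals of miR-451a, miR-142a-5p and miR-142a-3p included 0. The erythroid miR-144-3p was not listed. All 5 mesenchymal and smooth muscle miRNAs were listed, with 3.83% and 3.91% of the reads, led by miR-143-3p. Within this list miR-214-3p had a log2 ratio of -0.49 (-0.61 to -0.38), and miR-143-3p had 0.31 (0.22 to 0.40), miR-199a-3p 0.41 (0.14 to 0.69), miR-199a-5p 1.26 (0.49 to 2.09) and miR-145a-5p 0.02 (-0.12 to 0.16). Both endothelial miR-126a arms were listed, with 9.11% of the reads in NC-Exo versus 6.68% in HC-Exo, a summed log2 ratio of -0.45 (-0.49 to -0.41). The more abundant arm, miR-126a-5p, had a log2 ratio of -0.49, and miR-126a-3p had 0.21. The part of endothelial, mesenchymal or blood cell vesicles in the let-7 results was not tested. In vesicle RNA, fewer vesicles of a kind and less of a miRNA per vesicle cannot be told apart.

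Between the libraries, 3 of the 8 tested let-7 3p members, let-7b-3p, let-7d-3p and let-7f-1-3p, had lower levels in HC-Exo by the exact binomial test, against 29 of 340 miRNAs (8.53%). All 3 passes were lost in the exact test of edgeR with an assumed coefficient of variation of 0.1, where the adjusted p-values were 0.264, 0.563 and 0.161. The difference was past 2-fold as well in let-7f-1-3p alone, and the other 5 members did not pass the test. Of the 11 members, 8 reached 10 reads over both libraries and were tested, and these held 7 distinct pairs of counts. The HC-Exo reads of each miRNA were compared with its reads in both libraries by a two-sided exact binomial test, adjusted by the Benjamini-Hochberg method over all 340 miRNAs that reached 10 reads. A miRNA was called when the adjusted p-value was under 0.05 and the ratio of RPM was at least 2-fold in either direction. Of the 8 tested members 1 was called, let-7f-1-3p, against 16 of 340 tested miRNAs (4.71%). This test compares the reads of these 2 libraries, not the conditions, and no difference between them has a replicate check.

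The level of let-7f-1-3p in HC-Exo was 0.465 times that in NC-Exo (0.297 to 0.719), a log2 ratio of -1.10 (-1.75 to -0.48), with an adjusted p of 0.00316 in the exact binomial test. At the NC-Exo share, HC-Exo would have held 75.3 reads of let-7f-1-3p where 35 were counted. The study selected this miRNA from these libraries, so its ratio is not independent evidence. The call ended when a spread between cultures was assumed. When the coefficient of variation was assumed to be 0.1, let-7f-1-3p had an adjusted p of 0.161 in the exact test of edgeR, with 0.768 at 0.2 and 1 at 0.4, and none of the 340 miRNAs had an adjusted p under 0.05 at any of these values.

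The most abundant member, let-7d-3p, had a log2 ratio of -0.27 (-0.35 to -0.19) and an adjusted p of 4.35e-09 in the exact binomial test. Its difference was small and well under 2-fold, and its small p-value came with the largest number of reads among the let-7 3p members. For let-7b-3p the log2 ratio was -0.64 (-1.10 to -0.18), with an adjusted p of 0.0255 in the exact binomial test. By the adjusted p-value alone, without the fold limit, 3 of the 8 members were lower (let-7b-3p, let-7d-3p and let-7f-1-3p), against 29 of 340 miRNAs (8.53%). By the same rule 0 members were higher, against 47 of 340 miRNAs (13.8%). With an assumed coefficient of variation of 0.1 these passes were lost too, with adjusted p-values of 0.563 for let-7d-3p and 0.264 for let-7b-3p in the exact test of edgeR, in which the lowest adjusted p of all 340 miRNAs was 0.133.

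The sequence shared by let-7a-1-3p and let-7c-2-3p had a log2 ratio of -0.30 (-0.56 to -0.03), with an adjusted p of 0.0931 in the exact binomial test. For let-7f-2-3p the log2 ratio was -0.29 (-0.70 to 0.11), with an adjusted p of 0.314 in the exact binomial test. Neither passed the threshold, and the interval of let-7f-2-3p included 0. The result for the shared sequence depended on the scaling, since its adjusted p in the exact binomial test was 0.0137 to 0.0336 under 4 of the 5 other scalings. By the adjusted p-value alone, these 4 scalings gave 5 of 8 members, or 4 of the 7 distinct ones, as lower, against 35 to 38 of 340 miRNAs (10.3 to 11.2%). They gave 0 members as higher, against 24 to 35 of 340 miRNAs (7.06 to 10.3%), so the balance of lower and higher miRNAs in the table depended on the scaling too. The low-count members let-7c-1-3p and let-7e-3p had log2 ratios above 0, at 0.62 (-0.78 to 2.17) and 1.04 (-0.39 to 2.68), and their intervals spanned both directions. With a pseudocount of 5 reads these ratios were 0.29 and 0.56. By fold alone, 2 of the 8 members were past 2-fold, let-7f-1-3p and let-7e-3p, against 53 of 340 miRNAs (15.6%). The count was 1 with the TMM factors of edgeR, under which let-7e-3p had a log2 ratio of 0.97.

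**Figure D2:**
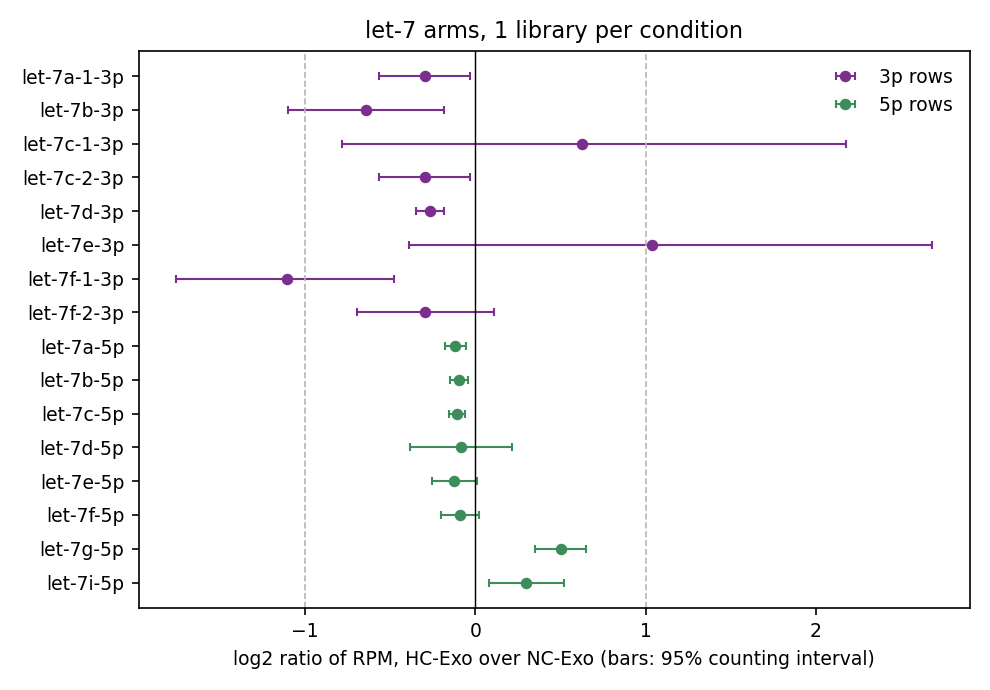
Log2 ratio of RPM of HC-Exo over NC-Exo for the 8 tested let-7 3p members (purple) and the 8 let-7 5p miRNAs (green), 1 library per condition, with 95% counting intervals and dashed lines at a 2-fold ratio. The interval of mmu-let-7f-1-3p runs from -1.75 to -0.48, and those of let-7c-1-3p and let-7e-3p include 0.

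Of the 7 distinct tested let-7 3p members, 5 had a log2 ratio below 0, against 149 of 340 tested miRNAs (43.8%). Their median log2 ratio was -0.29, with a range of -1.10 to 1.04, and the median over the 340 miRNAs was 0.10. The 3 members under 10 reads, which were not tested, all had more reads in HC-Exo. These were let-7i-3p with 1 and 6 reads, let-7g-3p with 0 and 3 and let-7a-2-3p with 0 and 1. The 5 of 7 is therefore no support for a direction. A minimum of 10 reads in each library left out let-7c-1-3p and let-7e-3p, the tested members with ratios above 0, through their few reads in NC-Exo. The 5 that remained were all below 0, against 110 of 247 miRNAs with as many reads (44.5%), and since this minimum takes out low NC-Exo counts the 5 of 5 is no support for a direction. Their median log2 ratio was -0.30, compared with 0.07 over the 247 miRNAs. For the let-7 5p miRNAs the median was -0.09, and 6 of 8 were below 0. For 36 less-read arms of other miRNAs with as many reads, the median log2 ratio was 0.13, and 14 were below 0. These members are few, and the let-7f-1 and let-7d hairpins share a cluster, so the values describe them and nothing particular to the family was tested. Scaling by the upper quartile shifted all log2 ratios by -0.12.

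**Figure D3:**
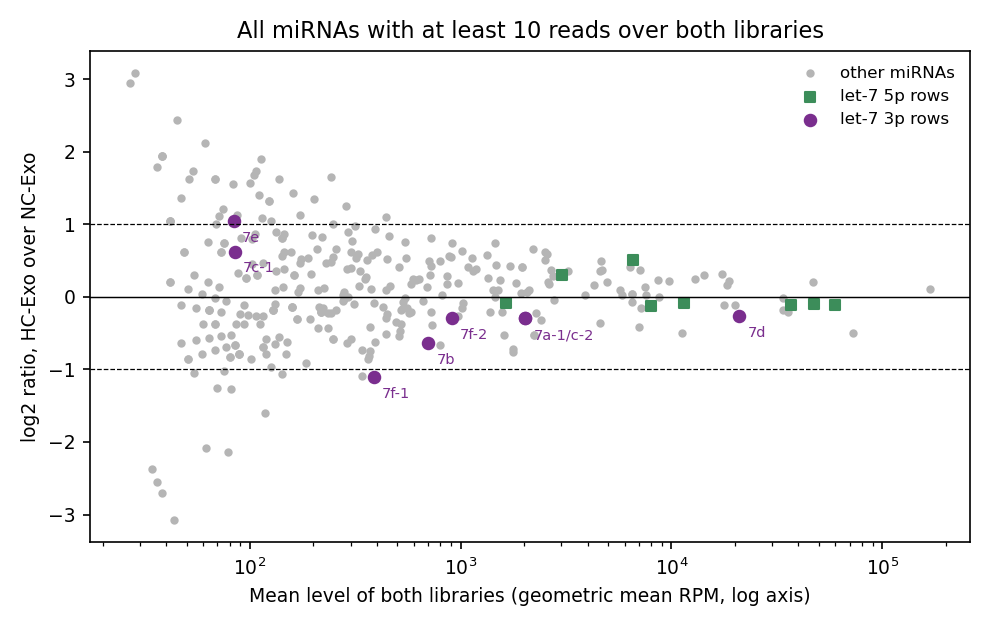
Log2 ratio of RPM, HC-Exo to NC-Exo, against the mean level of both libraries (geometric mean RPM, log axis) for the 340 tested miRNAs, with let-7 3p members in purple, let-7 5p miRNAs as green squares and dashed lines at a 2-fold ratio. let-7f-1-3p lies below the lower line at -1.10, and let-7d-3p, with 4914 reads over both libraries, lies at -0.27.

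Whether the members differed from each other was read from the interval of the difference of their log2 ratios. The interval left out 0 in 6 of the 21 pairs of members, without adjustment for the number of pairs, and 5 of these included let-7f-1-3p. These are counting intervals of 1 library per condition, so they describe these reads only. The study selected let-7f-1-3p from the same libraries. Its call was lost in the exact test of edgeR with an assumed coefficient of variation of 0.1 (adjusted p = 0.161). The ratio of let-7f-1-3p was below that of let-7d-3p, with a difference of -0.84 (-1.49 to -0.20), and below that of let-7a-1-3p, with -0.81 (-1.51 to -0.12). The let-7f-1 and let-7d hairpins share the cluster on chromosome 17, while the let-7a-1-3p reads may come from chromosome 17 or, as let-7c-2-3p, from chromosome 7. It was also below the ratio of let-7f-2-3p, the other arm that pairs with let-7f-5p, with a difference of -0.81 (-1.58 to -0.05). Against let-7b-3p, which shares its seed, the difference was -0.47 (-1.27 to 0.33), so these members could not be separated at this depth. The other pair was let-7b-3p and let-7e-3p, with a difference of -1.68 (-3.38 to -0.15).

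Summed over the 10 entries with distinct reads, let-7 3p arms took 2859 reads or 2.79% of the library in NC-Exo (2.69 to 2.89%) and 3052 reads or 2.29% in HC-Exo (2.21 to 2.37%). The log2 ratio of the sum was -0.28 (-0.36 to -0.21), and the sum was mostly let-7d-3p. Without let-7d-3p there were 495 and 502 reads, with a log2 ratio of -0.36 (-0.54 to -0.17). Without let-7d-3p and let-7f-1-3p it was -0.28 (-0.47 to -0.09), as low as with them. The members with the seed UAUACAA, counted once per sequence, summed to 378 reads in NC-Exo versus 353 in HC-Exo, with a log2 ratio of -0.47 (-0.69 to -0.26). This sum includes let-7f-1-3p, which the study selected from these libraries. No sum of the seed without let-7f-1-3p was taken, so nothing particular to the seed was tested. The let-7 5p miRNAs took 18.0% of the reads in NC-Exo (17.7 to 18.2%) and 17.0% in HC-Exo (16.8 to 17.2%), with a log2 ratio of -0.08 (-0.10 to -0.05).

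The guide arms gave the reference for each family. With 6350 and 7647 reads, let-7c-5p was the most abundant, and its log2 ratio was -0.11 (-0.16 to -0.06). The ratios of let-7a-5p, let-7b-5p, let-7d-5p, let-7e-5p and let-7f-5p were between -0.12 and -0.08. Only let-7g-5p, from 566 to 1040 reads with 0.50 (0.35 to 0.65), and let-7i-5p, from 280 to 447 reads with 0.30 (0.08 to 0.52), were above 0 among the 8 let-7 5p miRNAs, with adjusted p-values of 9.30e-10 and 0.0342 in the exact binomial test. By the same exact binomial test let-7a-5p, let-7b-5p and let-7c-5p were lower in HC-Exo, with adjusted p-values of 0.00196, 0.00529 and 0.000167. The let-7 entries without an arm in their name, let-7j and let-7k, had log2 ratios of 0.19 (-0.09 to 0.47) and -0.26 (-0.65 to 0.13).

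The share of 3p reads within each family does not depend on the library totals. In most let-7 families the 5p arm held nearly all reads, and let-7d was the exception in both libraries. Its 3p arm had 93.1% of the let-7d reads in NC-Exo (92.1 to 94.1%) and 92.3% in HC-Exo (91.2 to 93.3%), or 13.59 and 11.97 reads for each read of let-7d-5p, which had 174 and 213 reads. The name passenger therefore did not describe the read counts of let-7d. Both arms reached 10 reads over both libraries in 71 of 169 arm pairs of the table, 6 of them let-7 families. Of these 6, 1 had more 3p than 5p reads in both libraries, against 35 of 71 pairs (49.3%). The median 3p share over the 71 pairs was 52.6% in NC-Exo versus 60.0% in HC-Exo, and let-7d ranked 12th by its 3p share in both libraries.

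In the other families the 3p arm was the minor strand. For let-7f, with both 3p members summed, it held 11.7% of the reads in NC-Exo (10.0 to 13.5%) and 8.83% in HC-Exo (7.50 to 10.3%). For let-7a it held 5.48% (4.81 to 6.22%) and 4.89% (4.31 to 5.53%), and for let-7c 3.60% (3.16 to 4.08%) and 3.25% (2.87 to 3.67%). For let-7b it held 1.76% (1.42 to 2.16%) and 1.21% (0.957 to 1.52%), with overlapping intervals. The let-7a and let-7c values use the same 3p reads of the shared sequence, so each is an upper value for its family. The 3p arms of let-7e, let-7i and let-7g had few reads. The 3p share was 0.698% (0.256 to 1.51%) and 1.55% (0.887 to 2.50%) in let-7e, and 0.356% (0.00901 to 1.97%) and 1.32% (0.488 to 2.86%) in let-7i. For let-7g there were 0 of 566 reads in NC-Exo, with an upper limit of 0.650%, and 0.288% in HC-Exo.

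**Figure D4:**
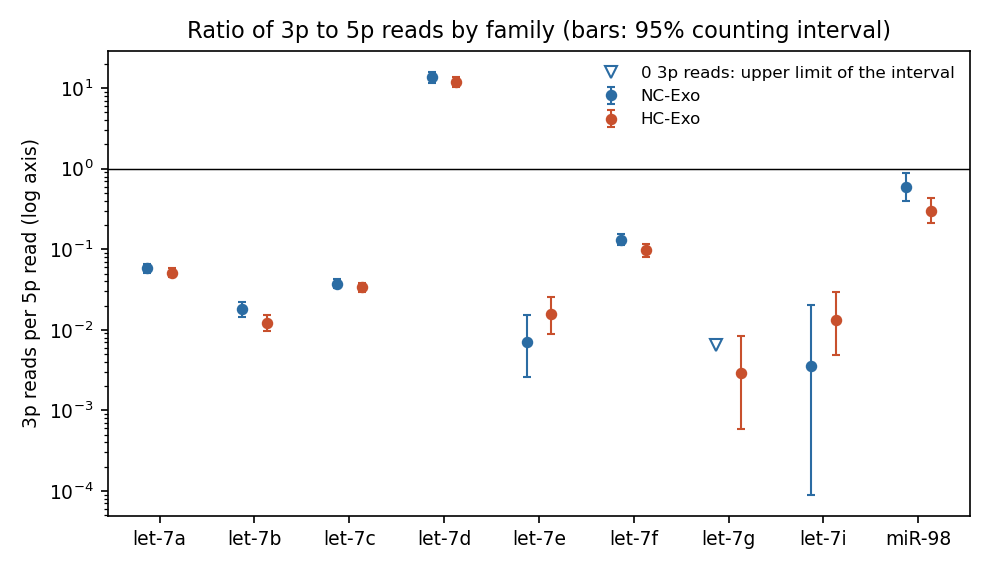
Number of 3p reads per 5p read in each let-7 family and in miR-98 on a log axis, NC-Exo in blue and HC-Exo in orange, with 95% counting intervals and an open triangle at the upper limit for let-7g in NC-Exo, which had 0 3p reads. let-7d is above the line of equal reads, with 13.59 and 11.97, and the other families are below it.

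The change of the 3p to 5p ratio was tested in each pair by a two-sided Fisher's exact test, adjusted by the Benjamini-Hochberg method over the 71 pairs. None of the let-7 families was called, against 6 of 71 pairs (8.45%). The log2 change of the ratio was below 0 in 5 of 6 let-7 families, against 42 of 71 pairs (59.2%), and the unadjusted p-value was under 0.05 in 2 of 6 families and in 21 of 71 pairs. The families let-7g and let-7i, not tested for too few 3p reads, had higher 3p shares in HC-Exo. For let-7f the log2 change was -0.45 (-0.80 to -0.10), with an adjusted p of 0.0700 in Fisher's exact test. For let-7b it was -0.54 (-1.01 to -0.08), with an adjusted p of 0.0909 in Fisher's exact test. The changes of let-7a, let-7c and let-7d were -0.17 (-0.45 to 0.10), -0.15 (-0.42 to 0.11) and -0.18 (-0.49 to 0.12), and their intervals included 0. In let-7e the change was 1.16 (-0.27 to 2.81), and 0.68 with a pseudocount of 5 reads.

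Both let-7f hairpins give the same 5p sequence, so the ratio of each let-7f precursor cannot be had. Taken alone, let-7f-1-3p had 4.76 reads per 100 reads of let-7f-5p in NC-Exo versus 2.35 in HC-Exo, a log2 change of -1.02 (-1.68 to -0.38), with an adjusted p of 0.0169 in Fisher's exact test over all single pairs. It was the only one of 8 single let-7 3p entries that passed, against 8 of 74 single pairs (10.8%). This change rests on the same 58 and 35 reads of let-7f-1-3p, since let-7f-5p had a log2 ratio of -0.09. The study selected let-7f-1-3p from these libraries, so the change is not independent evidence. Fisher's exact test covers counting error only, and no spread between cultures was assumed for arm ratios. In contrast, let-7f-2-3p had 8.46 and 7.33 reads per 100 reads of let-7f-5p, a log2 change of -0.21 (-0.62 to 0.21). The reads of all let-7 5p miRNAs were also put in as the reference for each let-7 family in turn. With this summed reference 2 of the 6 families passed the threshold. These were let-7d and let-7f, with log2 changes of -0.19 and -0.46 and adjusted p-values of 0.000414 and 0.0489 in Fisher's exact test. The other 4 families had adjusted p-values from 0.0876 (let-7b) to 0.382 (let-7c) in Fisher's exact test.

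**Figure D5:**
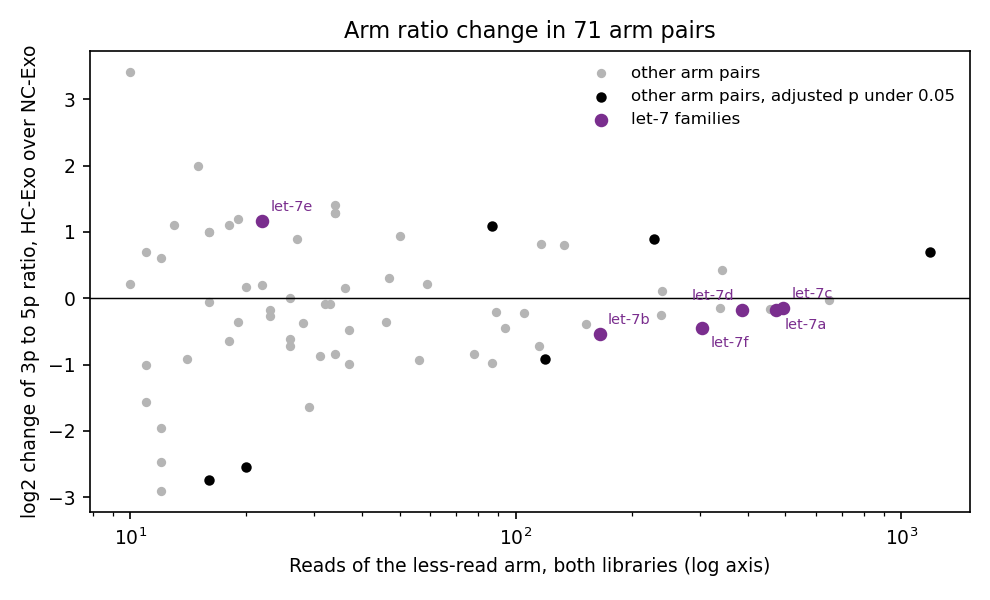
Log2 change of the 3p to 5p ratio, HC-Exo over NC-Exo, against the reads of the less-read arm over both libraries (log axis) for 71 arm pairs, with let-7 families in purple and other pairs with an adjusted p under 0.05 in Fisher's exact test in black. Of the 6 let-7 families 5 lie below 0, and let-7e, at 1.16, lies above it.

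The relative miR-98, whose hairpin lies beside let-7f-2, has the let-7 seed in its 5p arm, and its 3p arm has the seed UAUACAA. It is printed to show this shared seed.
miR-98-3p: cUAUACAAcuuacuacuuucc
There were 44 reads of miR-98-3p in NC-Exo versus 43 in HC-Exo, and the log2 ratio was -0.41 (-1.05 to 0.23), with an adjusted p of 0.382 in the exact binomial test. Its 5p arm went from 721 to 1066 RPM, with a log2 ratio of 0.56 (0.15 to 0.99). The share of 3p reads was 37.3% in NC-Exo (28.6 to 46.7%) and 23.2% in HC-Exo (17.36 to 30.004%), a log2 change of the ratio of -0.97 (-1.75 to -0.20), with an adjusted p of 0.0700 in Fisher's exact test.

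In other let-7 clusters, miR-99 and miR-125 family members are made from the same transcripts as let-7 in many animals. Among their 3p arms, miR-125b-1-3p had 21 reads in NC-Exo versus 13 in HC-Exo, a log2 ratio of -1.07 with an adjusted p of 0.125 in the exact binomial test. For miR-99b-3p, the neighbour of let-7e-3p, there were 57 and 58 reads (-0.35), and for miR-125a-3p 50 and 55 reads (-0.24). The intervals of miR-99b-3p and miR-125a-3p included 0. Of their 5p arms, miR-99b-5p had 242 and 406 reads, with a log2 ratio of 0.37 (0.14 to 0.61), miR-125b-5p had 922 and 1390 reads, with 0.22 (0.10 to 0.34), and miR-125a-5p had 3487 and 4491 reads, with -0.01 (-0.08 to 0.05). There were 26 and 44 reads of miR-99a-5p and 23 and 27 of miR-100-5p. Under 10 reads were counted for miR-99a-3p and miR-125b-2-3p, and miR-100-3p was not listed.

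The miRNAs nearest to let-7f-1-3p by the log2 ratio, among 225 candidates with at least 30 reads outside let-7, were miR-212-3p, from 51 to 31 reads (-1.09), miR-125b-1-3p (-1.07) and miR-673-5p, from 18 to 12 reads (-0.96). Those nearest to let-7d-3p were miR-221-3p, from 50 to 53 reads (-0.29), miR-125a-3p (-0.24) and, with equal counts, miR-466a-3p and miR-466e-3p, each from 19 to 20 reads (-0.30). This likeness rests on 1 ratio between 2 libraries. Outside let-7, 36 arm pairs had at least 10 reads of each arm in each library. The largest changes of the 3p to 5p ratio among them were those of miR-125b (-0.98), miR-98 (-0.97) and miR-199b (-0.94) in one direction and of miR-877 (1.40), miR-28a (1.10) and miR-361 (0.94) in the other. The changes of the let-7 families with as many reads were between -0.54 and -0.15. As the named pairs were picked for their large changes, they give no rank for the let-7 families.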

How the data were processed

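Small RNA of 1 NC-Exo and 1 HC-Exo library was sequenced on an Illumina instrument. The submitters' processing notes name Bowtie2 and the mouse builds mm9 and GRCm38. Versions, trimming and the handling of reads that match several miRNAs are not given in the sources used here. The cells were from rats, and every miRNA of the table is named with the mouse prefix. For each mature miRNA the authors deposited the raw read count, the input of every value here. The authors' deposited normalized signal was 12.1 per read in NC-Exo and 9.23 in HC-Exo. Of its 897 values above 0 and up to 100 reads, 100% were whole reads within 0.05 reads. The recovered reads differed from the count in 1 miRNA, and 16 miRNAs were called on the recovered reads. A deposited comparison table with fold changes, p-values and q-values and 4 further columns of per-library values was not used.

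RPM were computed from the counts and the library totals. Intervals were 95% exact (Clopper-Pearson) for shares and ratios of reads, and conditional exact for arm ratios. edgeR's quasi-likelihood test could not be fitted with 1 library per condition. Exact binomial and Fisher tests were run with scipy 1.17.1 and pandas 2.3.3 on numpy 2.4.6 (Python 3.11.15), and tested on simulated data. Alternatives used edgeR 4.0.16 and DESeq2 1.42.0 in R 4.3.3, and figures were drawn with matplotlib 3.10.9. Mature and hairpin sequences came from RefSeq (GRCr8). Named miRNAs were all let-7 entries, miR-98, the miR-99, miR-100 and miR-125 arms, the marker lists and miR-206-3p. Also named were the 3 miRNAs nearest by log2 ratio to the lowest and to the most-read member. The last were the 3 arm pairs outside let-7 with the largest change in each direction. Members, lists and tests were chosen with earlier results of these data known.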

Additional observations from a re-analysis of the deposited data

How the results depend on the processing

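No paired analysis was possible because each condition had 1 library, and no replicate could be left out. The number of let-7 3p members called was 1. It became 0 in the exact test of edgeR when the coefficient of variation was assumed to be 0.1, 0.2 or 0.4. At these values 0 of all 340 miRNAs had an adjusted p under 0.05. With the adjusted p of the exact binomial test alone the number was 3. The adjusted p-values of let-7b-3p and let-7d-3p also lost the threshold with each assumed coefficient. It was 1 under all other alternatives of scaling and filter, and with 2 alternatives added after seeing the data (recovered reads, and let-7c-2-3p left out). The number past 2-fold was 2 and became 1 with TMM, upper-quartile and median log2 ratio scaling. It was also 1 with totals without the 10 most abundant miRNAs and with pseudocounts of 0.5 and 5 reads. Minimums of 10 reads in each library or 50 over both gave 1 as well. With the DESeq2 size factors the number stayed 2. It was 4 with a 1.5-fold limit and 3 without a minimum. The share over all miRNAs is not given for these settings, so these counts say nothing particular about the members. The log2 ratio of the summed 3p reads, -0.28, was -0.41 with upper-quartile scaling and -0.31 with the DESeq2 size factors. It was -0.38 both with median log2 ratio scaling and without the 10 most abundant miRNAs. The range over 11 alternatives was -0.41 to -0.28. The change of the arm ratio turned to 0.73 in let-7c with let-7c-1-3p alone, which had 7 and 14 reads (adjusted p = 0.600 in Fisher's exact test). With all let-7 5p reads as the reference the change was -0.19 in let-7d and -0.46 in let-7f, compared with -0.18 and -0.45 with their own 5p arms. With let-7f-1-3p alone it was -1.02 in let-7f. These changes of -0.19, -0.46 and -1.02 passed the threshold of Fisher's exact test, which covers counting error only. Those of -0.46 and -1.02 include the reads of let-7f-1-3p, which the study selected from these libraries. The log2 ratio of let-7a-1-3p passed the threshold of the exact binomial test under 4 of 5 other scalings, with an adjusted p from 0.0137 to 0.0336. With a pseudocount of 5 reads the log2 ratios of let-7c-1-3p and let-7e-3p fell from 0.62 and 1.04 to 0.29 and 0.56, and the let-7e arm change from 1.16 to 0.68. Depth limited let-7c-1-3p, let-7e-3p and the 3 members under 10 reads.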

Other observations

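Dividing 1000000 by the authors' normalized signal per read gave 82761 reads for NC-Exo and 108390 for HC-Exo. The totals of the listed miRNAs were 1.24 and 1.23 times these numbers. Identical counts in both libraries occurred in 4 groups of names with 100 reads or more. For 1 of these, let-7a-1-3p and let-7c-2-3p, the rat sequences of all names were known and were the same. The repeated reads of the 4 groups came to 1332 for NC-Exo and 1667 for HC-Exo. Such groups were noticed after the values were seen.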
